A study of Mus musculus with 12 samples.

Results

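A set of 6 genes of itaconate, nitric oxide and arginine metabolism was followed through 12 RNA-seq libraries of mouse macrophages and osteoclasts. The members were named by their roles, with earlier results of these data known, and the 6 described here, Acod1, Nos2, Gch1, Slc7a2, Ass1 and Odc1, were found among the 54532 genes of the table. Macrophages came from marrow of wild-type mice expanded in CMG, a source of M-CSF, and kept in 2% CMG. Osteoclasts, the bone-resorbing cells, came from the same kind of macrophages given RANKL at 100 ng/mL per the sample labels, while the shared protocol gives 50 to 100 ng/mL. On day 5 each cell type was left untreated or given LPS (lipopolysaccharide, from the outer wall of Gram-negative bacteria) at 100 ng/mL for 3 hours, with 3 libraries in each of the 4 groups. The strain, age and sex of the mice are not given in the sources used here. Nothing in the labels says that replicates came from separate mice or cultures, so the p-values measure only the spread between these libraries, which may be technical.

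Acod1 encodes the mitochondrial enzyme that turns cis-aconitate, an intermediate of the tricarboxylic acid cycle, into itaconate, which inhibits succinate dehydrogenase and limits bacterial growth. Nos2 encodes the inducible nitric oxide synthase, which makes nitric oxide and citrulline from arginine and needs tetrahydrobiopterin as a cofactor. GTP cyclohydrolase 1, the product of Gch1, starts tetrahydrobiopterin synthesis. The Slc7a2 product is a cationic amino acid transporter that brings arginine into the cell, and argininosuccinate synthase, from Ass1, returns citrulline toward arginine. Ornithine decarboxylase (Odc1) converts ornithine into putrescine, the first polyamine. Acod1 and Nos2 are classical LPS-induced genes of macrophages.

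Levels are given as FPKM, a value per kilobase of exon, so they can be set beside each other across genes. Differences are on the log2(FPKM + 1) scale unless another scale is named, and a gene counts as called when the adjusted p of the limma test (Benjamini-Hochberg over 11335 genes) is below 0.05. All 6 genes passed the filter of at least 1 FPKM in at least 3 libraries. Acod1 and Nos2 passed the filter through LPS-treated libraries only, so they had to differ between some groups.

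The libraries held 15651955 to 20281567 reads assigned to genes. The cell type labels were checked against markers: the summed level of 9 osteoclast markers (Ctsk, Acp5, Calcr and others) was 9.21 to 24.4 FPKM in the macrophage libraries and 29088.6 to 32078.9 FPKM in the osteoclast libraries. Of 7 macrophage markers, 6 were lower in osteoclasts without LPS and Cd68 was higher, against 39.0% of all tested genes called lower and 38.8% higher. Their summed level was 1999.0 to 2461.3 FPKM in macrophage libraries and 1692.6 to 1795.5 FPKM in osteoclast libraries. Stromal markers summed to 26.2 to 36.0 FPKM in macrophage and at most 1.42 FPKM in osteoclast libraries, and lymphocyte markers to at most 0.172 FPKM in any library. The 9 neutrophil markers summed to 5.62 to 8.04 FPKM in untreated and 6.88 to 16.4 FPKM in LPS-treated macrophages. They summed to at most 1.88 FPKM in osteoclasts, with Elane and Ly6g at 0 in all osteoclast libraries. Of the 3 tested, 2 were called higher with LPS in macrophages, where 36.8% of all tested genes were called higher. The 6 dendritic cell markers summed to 0.377 to 0.478 FPKM in untreated and 5.27 to 6.14 FPKM in LPS-treated macrophages, of which Xcr1 made up 5.10 to 5.69 FPKM, and to 0.951 to 1.13 and 1.64 to 2.3 FPKM in osteoclasts without and with LPS. The part of such cells in the LPS differences was not tested.

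The 5′ flanks of these genes are shown to give the sequence next to each start; no relation between their motifs and the LPS differences was tested. RefSeq promoter sequences (GRCm38.p6) matched 4 of the 6 genes, Acod1, Ass1, Gch1 and Odc1. Each sequence runs 5′ to 3′ on the gene's strand from 250 bases before the RefSeq start and stops before the annotated gene body. Capitals mark searched motifs on either strand. The Acod1 stretch is chr14:103046762-103046976 (plus strand), that of Gch1 is chr14:47189414-47189663 (minus strand) and that of Odc1 is chr12:17544623-17544793 (plus strand).
Acod1: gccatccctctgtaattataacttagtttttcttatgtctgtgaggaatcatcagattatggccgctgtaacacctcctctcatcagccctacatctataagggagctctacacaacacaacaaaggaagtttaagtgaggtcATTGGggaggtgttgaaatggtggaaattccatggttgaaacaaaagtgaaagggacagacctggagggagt
Gch1: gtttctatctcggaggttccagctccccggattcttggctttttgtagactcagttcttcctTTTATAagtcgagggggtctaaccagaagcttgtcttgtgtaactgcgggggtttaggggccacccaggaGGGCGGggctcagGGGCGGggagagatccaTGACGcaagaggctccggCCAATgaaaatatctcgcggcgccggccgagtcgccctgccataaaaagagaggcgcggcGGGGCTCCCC
Odc1: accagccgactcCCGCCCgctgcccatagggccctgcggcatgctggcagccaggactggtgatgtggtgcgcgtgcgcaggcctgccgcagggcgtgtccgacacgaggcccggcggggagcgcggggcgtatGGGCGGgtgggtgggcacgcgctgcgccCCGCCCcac

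The search covered 8 motifs in the 250 bases before the start, on both strands, and the share of all 32851 RefSeq promoters with a match is given for each. The letters CCAAT (33.8% of promoters) were found 107 to 103 bases before the Acod1 start, where they read ATTGG, and 70 to 66 bases before the Gch1 start. An NF-kB motif (7.25% of promoters) was found in 1 of the 4, at 10 to 1 bases before the Gch1 start, as GGGGCTCCCC. The letters TGACG (17.8%) lay 88 to 84 bases before the Gch1 start and 79 to 75 bases before the Odc1 start, past the printed stretch. Matches to GGGCGG (32.7%) numbered 4 in the Odc1 window, 2 in that of Gch1 and 1 in that of Ass1 (the Odc1 match at 15 to 10 bases is past the printed stretch), and overlapped none of the other motifs there. TATAAA (12.4%) was found 28 to 23 bases before the Acod1 start, past the printed stretch, and at 188 to 183 bases before the Gch1 start, where it reads TTTATA. A match to CACGTG (6.02%) was found 36 to 31 bases before the Ass1 start. GAAA repeated after a gap of 2 bases (2.98%) and TGANTCA (6.75%) matched in none of the 4 windows. The windows had a GC content of 44.4% (Acod1), 59.2% (Gch1), 75.6% (Ass1) and 80.0% (Odc1), against a median of 52.4% over all promoters. A match describes letters only and is not a binding site.

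LPS raised all 6 genes in macrophages, where 69.9% of all tested genes were called, 36.8% higher and 33.1% lower, and their median difference was 3.51 against 0.02 over all tested genes. In osteoclasts 5 of the 6 rose, where 17.7% of all tested genes were called and 11.1% called higher, with a median of 1.58 against 0.01. Ass1 was not called in osteoclasts. Acod1 and Nos2 passed the filter through LPS-treated libraries only, so a rise with LPS was built in for them. They are part of these counts and medians. Among the other members the differences in macrophages were 4.66 (Slc7a2), 2.36 (Gch1), 2.34 (Ass1) and 2.04 (Odc1). In osteoclasts they were 2.74, 0.42, 0.27 and 0.18. Treated and untreated libraries did not overlap for any of the 6 in macrophages, against 74.0% of all tested genes without overlap, nor for the 5 called genes in osteoclasts, against 34.0%. The 4 groups of each gene are plotted by library.

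**Figure D1:**
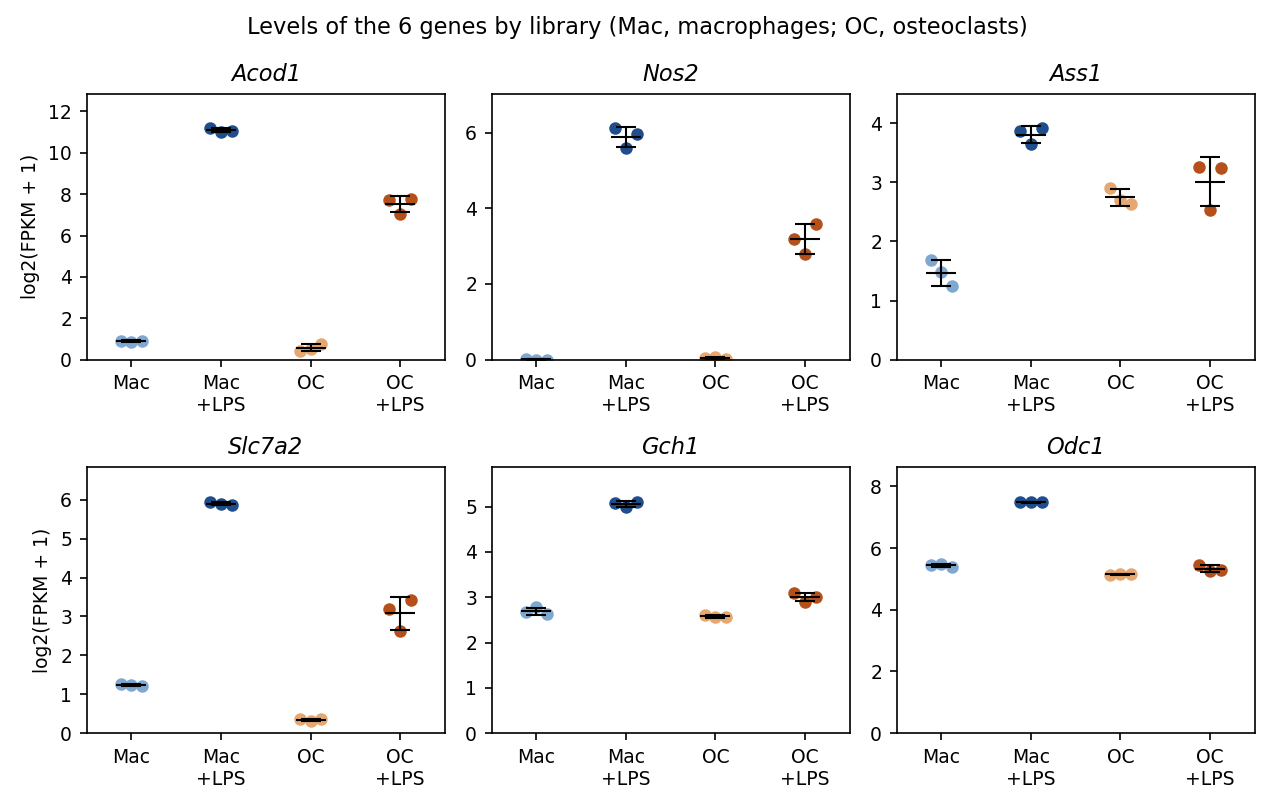
Levels of the 6 genes in the 12 libraries, as log2(FPKM + 1) on the y axis, for untreated and LPS-treated macrophages (Mac) and osteoclasts (OC); each point is a library, the long bar is the group mean and the error bar 1 SD (n = 3). The LPS-treated macrophages stand highest in every panel.

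Itaconate synthesis is described first. Acod1 (ENSMUSG00000022126, chr14:103046977-103056573, GRCm38, plus strand, 5 merged exons) gave 0.888, 0.827 and 0.89 FPKM in untreated macrophages and 2335.5, 2083.5 and 2133.7 FPKM after LPS. It rose by 10.19 ± 0.15 (SE) in macrophages (limma adjusted p = 1.30e-13), a 2515.2-fold rise of the group mean. By mean FPKM it moved from rank 10438 to rank 19 among all genes of the table.

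In osteoclasts Acod1 gave 0.351, 0.429 and 0.695 FPKM without LPS and 213, 133 and 215 FPKM with it. The rise was 6.95 ± 0.15 (SE; limma adjusted p = 1.79e-10), or 380-fold. Every LPS-treated osteoclast library stood above every untreated library of either cell type and below every LPS-treated macrophage library. The LPS-treated osteoclast mean was 8.56% of the LPS-treated macrophage mean, and the 3 osteoclast libraries stood at 9.75%, 6.1% and 9.83% of it.

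Nos2, the nitric oxide synthase (ENSMUSG00000020826, chr11:78920787-78960254, plus strand, 29 merged exons) was at 0.00978, 0 and 0 FPKM in untreated macrophages, which is 1 read over the 3 libraries, and at 68.3, 47.6 and 61.3 FPKM after LPS. The limma difference was 5.89 ± 0.17 (SE; adjusted p = 1.92e-11). Since the untreated level rests on 1 read against 10784, the ratio was 17816.2 with an exact 95% interval of 3197.0 to 703765.3 (counting error only).

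Untreated osteoclasts held Nos2 at 0.0246, 0.0536 and 0.0133 FPKM (7 reads), and LPS-treated osteoclasts at 8.08, 5.93 and 11.1 FPKM. The rise was 3.15 ± 0.17 (SE; limma adjusted p = 9.50e-08), with a read ratio of 280 (exact 95% interval 135 to 696, counting error only). The treated libraries of the 2 cell types did not overlap, and the osteoclast mean was 14.1% of the macrophage mean.

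Gch1, for cofactor synthesis (ENSMUSG00000037580, chr14:47153895-47189413, minus strand, 6 merged exons) gave 5.43, 5.86 and 5.17 FPKM in untreated macrophages and 32.7, 30.8 and 33.5 FPKM after LPS. It rose by 2.36 ± 0.06 (SE; limma adjusted p = 5.16e-12), or 5.89-fold. The untreated osteoclast libraries, at 5.12, 4.91 and 4.92 FPKM, stood close to untreated macrophages, and the osteoclast libraries with LPS reached only 7.52, 6.48 and 7.07 FPKM.

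The Gch1 rise in osteoclasts was small but passed the test, at 0.42 ± 0.06 (SE; limma adjusted p = 3.05e-04), or 1.41-fold, and all 3 treated libraries were above all 3 untreated ones. Treated osteoclasts stood at 21.7% of the treated macrophage mean.

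Slc7a2, for arginine uptake (ENSMUSG00000031596, 15 merged exons, plus strand of chromosome 8, 40862396 to 40922308) was at 1.4, 1.37 and 1.33 FPKM in untreated macrophages and at 60.8, 58.4 and 57.1 FPKM after LPS, a 43.0-fold rise of the mean. Osteoclasts held 0.279, 0.24 and 0.283 FPKM without LPS and 8.12, 5.13 and 9.74 FPKM with it, a 28.7-fold rise of the mean. Both rises passed the limma test, at 4.66 ± 0.15 (SE; adjusted p = 4.87e-11) in macrophages and 2.74 ± 0.15 (SE; adjusted p = 1.01e-07) in osteoclasts. No treated library overlapped an untreated one in either cell type. Slc7a2 shares 635 exon bases with Gm26584 on the opposite strand, whose level was at most 0.463 FPKM.

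Ass1, for arginine recycling (ENSMUSG00000076441, chr2:31470207-31520672, plus strand, 16 merged exons) gave 2.22, 1.78 and 1.36 FPKM in untreated macrophages and 13.6, 11.5 and 14.1 FPKM after LPS, and rose by 2.34 ± 0.18 (SE; limma adjusted p = 1.70e-07), or 7.31-fold. Untreated osteoclasts already stood at 6.51, 5.47 and 5.24 FPKM, and LPS-treated osteoclasts at 8.62, 4.81 and 8.44 FPKM, so the osteoclast groups overlapped. The osteoclast difference was 0.27 ± 0.18 (SE; limma adjusted p = 0.35). Without LPS-treated osteoclast replicate 2, the library at 4.81 FPKM, it was 0.50 and passed the test (limma adjusted p = 0.0193). Without replicate 1 or replicate 3 of that group it was 0.14 or 0.15 and did not pass (limma adjusted p = 0.71 and 0.651). The annotated copy Gm5424, 99.5% identical over 1240 bases, was listed at up to 0.379 FPKM, so reads of the 2 cannot be fully told apart.

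Odc1, at the entry to the polyamines (ENSMUSG00000011179, chr12:17544794-17551505, plus strand, 7 merged exons) was the member with the highest level in each untreated group. It gave 43.1, 43.7 and 40.8 FPKM in untreated macrophages and 178, 180 and 177 FPKM after LPS, a rise of 2.04 ± 0.05 (SE; limma adjusted p = 5.00e-12), or 4.19-fold. Osteoclasts gave 34.0, 34.3 and 34.7 FPKM without LPS and 42.7, 36.8 and 38.0 FPKM with it.

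The Odc1 rise in osteoclasts was 0.18 ± 0.05 (SE; limma adjusted p = 0.0273), or 1.14-fold. The call was lost without any 1 of the 3 untreated osteoclast libraries (0.17 to 0.19, adjusted p = 0.0645 to 0.0791) or without LPS-treated osteoclast replicate 1 (0.12, adjusted p = 0.0626), and after rescaling to TPM (0.11, adjusted p = 0.0725), quantile normalization (0.10, adjusted p = 0.134), no filter (0.18, adjusted p = 0.0574) or a fit of only the groups compared (0.18, adjusted p = 0.0958). Odc1 has 19 annotated genes with copies at least 90% identical over at least 200 bases, none above 0.786 FPKM.

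Whether LPS acted differently in the 2 cell types was tested directly, as the LPS difference in osteoclasts minus that in macrophages. All 6 genes were called lower in this interaction, against 30.0% of all tested genes called lower and 56.6% called in either direction, and their median was -2.01 against -0.01 over all tested genes. The largest gap was that of Acod1, at -3.24 ± 0.22 (SE; limma adjusted p = 1.10e-07). Nos2 gave -2.74 ± 0.24, Ass1 -2.08 ± 0.25, Gch1 -1.94 ± 0.08, Slc7a2 -1.92 ± 0.21 and Odc1 -1.86 ± 0.07 (SE).

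A pseudocount of 1 understates changes of low genes, so the interaction was also read on a ratio scale, with limma-voom on recovered reads. On that scale the order changed. The interaction was -2.70 ± 0.80 for Acod1, -2.55 for Ass1, -2.06 for Gch1 and -1.88 for Odc1, each called. Slc7a2 was -0.63 ± 0.46 (SE; limma-voom adjusted p = 0.268), so its smaller rise in osteoclasts was not shown on a ratio scale, where the group means rose 43.0-fold and 28.7-fold. With a pseudocount of 0.1 it was -0.97 ± 0.25 (SE; limma adjusted p = 0.00577). Nos2 was -5.05 ± 2.11 (SE; limma-voom adjusted p = 0.0506), with a level in untreated macrophages of 1 read. With no filter, where voom fits all genes above 0, Acod1 was -2.66 ± 2.95 (SE) and was not called (adjusted p = 0.579), while Nos2 was called there (-5.05 ± 1.78, SE; limma-voom adjusted p = 0.049).

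**Figure D2:**
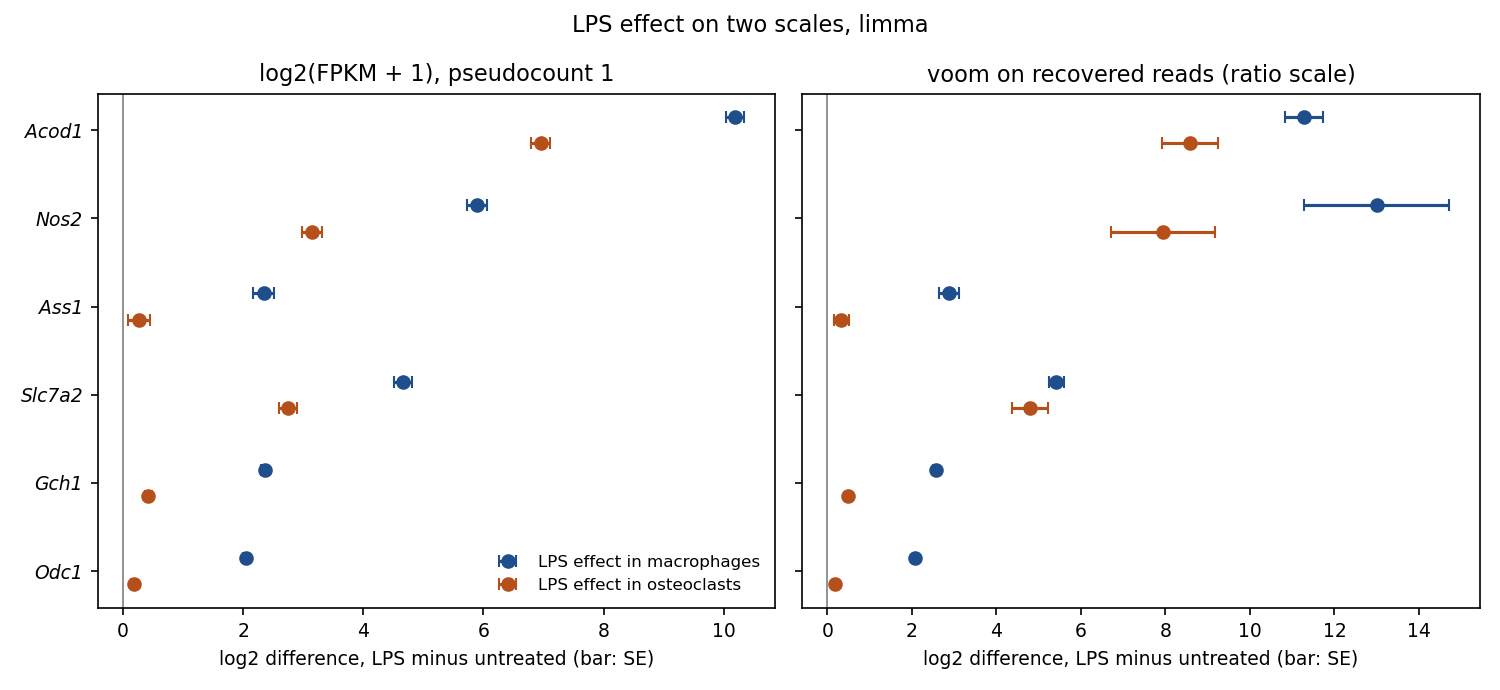
LPS effects of the 6 genes in macrophages (blue) and osteoclasts (orange) on the x axis, as log2 differences with SE bars (n = 3 libraries a group), on the log2(FPKM + 1) scale (left) and by limma-voom on recovered reads (right). Slc7a2 lies at 4.66 and 2.74 on the left and at 5.42 and 4.79 on the right, where its error bars come nearest to each other.

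Under LPS, osteoclasts and macrophages were compared directly. All 6 genes were lower in LPS-treated osteoclasts, against 43.0% of all tested genes called lower and 83.9% called, with a median of -2.43 against -0.02. In bulk libraries, fewer cells that respond and less RNA in each cell cannot be told apart. Acod1 was 11.7-fold lower, Slc7a2 7.67-fold, Nos2 7.07-fold, Gch1 4.6-fold, Odc1 4.55-fold and Ass1 1.79-fold, by group means. None of these 6 genes had an osteoclast library within the macrophage range, whereas 83.6% of all tested genes showed no overlap.

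Untreated osteoclasts and macrophages differed in 3 of the 6 genes, against 77.8% of all tested genes called, 38.8% higher and 39.0% lower. Ass1 was 3.22-fold higher in osteoclasts, at 1.28 ± 0.18 (SE; limma adjusted p = 3.15e-05). Slc7a2 was 5.11-fold lower, at -0.90 ± 0.15 (SE; limma adjusted p = 1.31e-04), and Odc1 1.24-fold lower, at -0.30 ± 0.05 (SE; limma adjusted p = 1.44e-04). Both gaps were wider after rescaling to TPM, at -1.83 for Slc7a2 and -0.72 for Odc1. The median over all tested genes was then -0.38. After quantile normalization the Slc7a2 gap was narrower, at -0.69, and the Odc1 gap was wider, at -0.53. A pseudocount of 0.1 without rescaling also widened the Slc7a2 gap. Acod1 was 1.77-fold lower with no overlap of the groups, which 81.4% of all tested genes also showed, and its difference of -0.33 ± 0.15 (SE) did not pass (limma adjusted p = 0.065). That difference passed without untreated osteoclast replicate 3 (-0.43, adjusted p = 0.0366), without LPS-treated osteoclast replicate 2 (-0.33, adjusted p = 0.00175), with a pseudocount of 0.1 (-0.75, adjusted p = 0.00548), with only the groups compared (-0.33, adjusted p = 0.0119), after rescaling to TPM (-0.87, adjusted p = 4.31e-04) and with the replicate block (-0.33, adjusted p = 0.0444). It did not pass after quantile normalization (-0.08, limma adjusted p = 0.633), by limma-voom (-0.87 ± 0.79, SE; adjusted p = 0.321) or with no filter (-0.33, adjusted p = 0.142). Nos2 and Gch1 were not called, and Nos2 rested there on 7 reads against 1. Gch1, at -0.12, was called lower after rescaling to TPM (-0.53, limma adjusted p = 1.87e-06), where the median over all tested genes was -0.38.

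The order of the 6 genes by mean FPKM in LPS-treated macrophages was Acod1 (2184.2), Odc1 (178), Nos2 (59.1), Slc7a2 (58.8), Gch1 (32.3) and Ass1 (13.0). Nos2 and Slc7a2 were neighbours whose libraries overlapped. In LPS-treated osteoclasts the order was Acod1 (187), Odc1 (39.1), Nos2 (8.35), Slc7a2 (7.66), Ass1 (7.29) and Gch1 (7.02). There the libraries of Nos2, Slc7a2, Ass1 and Gch1 overlapped, so these 4 had no resolved order.

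Without LPS the order in macrophages was Odc1 (42.5), Gch1 (5.49), Ass1 (1.78), Slc7a2 (1.37), Acod1 (0.868) and Nos2 (0.00326), and Ass1 and Slc7a2 overlapped. In osteoclasts it was Odc1 (34.4), Ass1 (5.74), Gch1 (4.99), Acod1 (0.492), Slc7a2 (0.267) and Nos2 (0.0305), and no neighbours overlapped.

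Macrophage markers varied within the osteoclast groups and are given beside the members. In LPS-treated osteoclasts, as a share of the LPS-treated macrophage mean, Adgre1 stood at 9.28%, Mertk at 7.01%, Fcgr1 at 0.931%, Mrc1 at 0.814% and Cx3cr1 at 0.679%. Csf1r stood at 69.7% and Cd68 at 175%. Replicate 2 was the lowest of the 3 LPS-treated osteoclast libraries in all 6 members and in 5 of the 7 macrophage markers, against 33.6% of all tested genes and 3 of 9 osteoclast markers. With LPS, 2 of the 7 markers were called higher in osteoclasts, where 11.1% of all tested genes were. Adgre1 went from 33.1 ± 3.33 to 62.2 ± 17.0 FPKM there (SD, n = 3; 0.85, limma adjusted p = 0.00258) and from 428 to 670 FPKM in macrophages. Fcgr1 went from 0.429 ± 0.083 to 1.5 ± 0.503 FPKM in osteoclasts (SD, n = 3; 0.79, limma adjusted p = 7.35e-04) and from 45.1 to 161 FPKM in macrophages. The part of remaining macrophages in the osteoclast response was not tested.

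**Figure D3:**
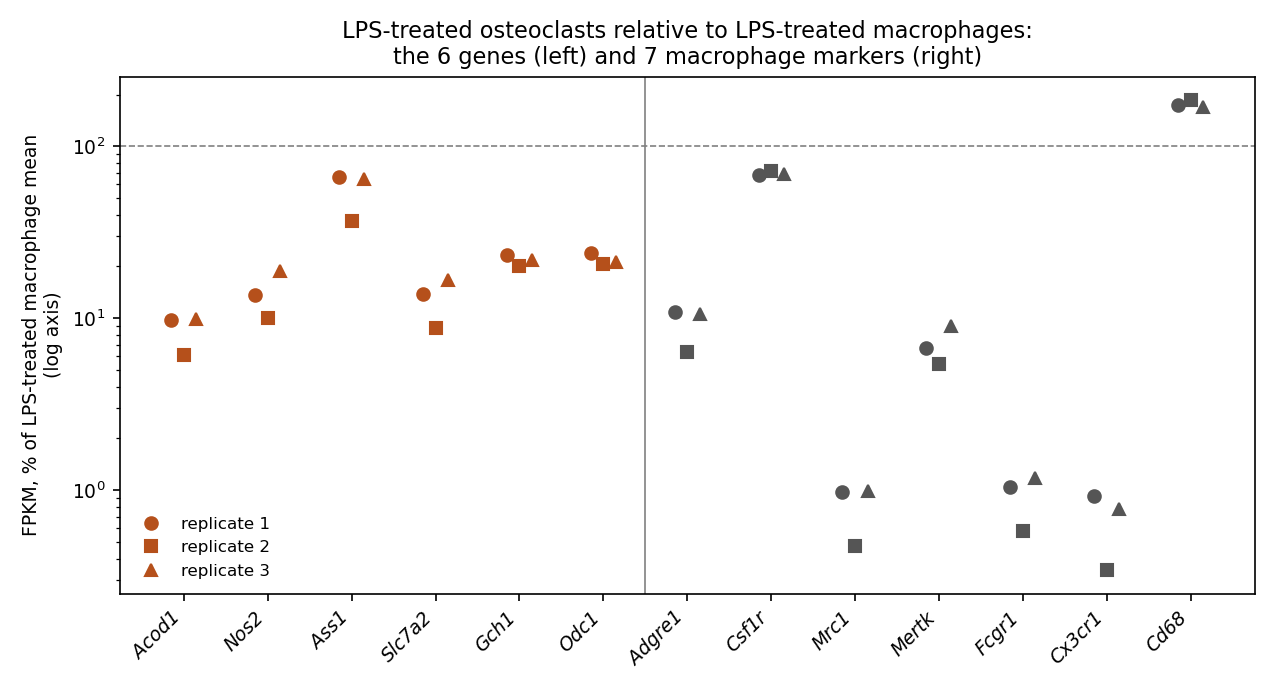
Level in each LPS-treated osteoclast library as a percent of the LPS-treated macrophage mean (y axis, log scale), for the 6 genes (left) and 7 macrophage markers (right); symbols are the 3 replicates and the dashed line marks equal levels. Acod1 sits at 6.1% to 9.83%, near Adgre1 at 9.28% on average and above Fcgr1 at 0.931%.

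Genes around the 6 were read from 5 lists of related genes, whose small shifts depended on scaling. Rescaling to TPM moved the median LPS difference of all genes in macrophages from 0.02 to -0.55, and calls that were higher made up 18.5% of calls in place of 52.6%. Among 13 tested itaconate-linked genes, LPS called 8 higher and 3 lower in macrophages, and after rescaling to TPM 1 higher and 11 lower. Of 17 tested genes of ornithine use, polyamines and creatine, 8 were called higher and 5 lower, and after rescaling 0 and 13. Of all tested genes 36.8% were called higher and 33.1% lower there. For a gene named below, each called difference printed for it kept its direction under TPM and under quantile normalization. Other differences of the same genes could turn: the LPS difference of Cs in macrophages was 0.25 and -0.39 after rescaling to TPM, that of Sdha 0.23 and -0.41, and that of Clybl 0.25 and -0.34.

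Irf1, an interferon-regulated transcription factor placed on the itaconate list, had the largest LPS difference of the listed genes in either cell type. Its mean was 7.17 ± 0.426 FPKM in untreated and 375 ± 5.12 FPKM in treated macrophages, against 2.60 ± 0.318 and 20.6 ± 3.83 FPKM in osteoclasts (SD, n = 3). LPS raised it in both (5.52 and 2.57; limma adjusted p = 9.29e-13 and 1.61e-08), and the interaction was -2.95 ± 0.16 (SE; limma adjusted p = 1.46e-08). Citrate synthase (Cs) was at 27.0 FPKM in untreated macrophages and 164 FPKM in untreated osteoclasts, the succinate dehydrogenase subunit Sdha at 47.3 and 251 FPKM, and Clybl, an enzyme of itaconate breakdown, at 5.54 and 33.1 FPKM. In all, 10 of the 13 tested itaconate-linked genes were higher and 3 lower in untreated osteoclasts, where 38.8% of all tested genes were called higher and 39.0% lower.

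Among the other arginine transporters, Slc7a7 and its heavy-chain partner Slc3a2, which together export arginine in exchange, rose in macrophages. Slc7a7 went from 6.99 to 25.0 FPKM (1.71; limma adjusted p = 4.23e-08) and from 4.10 to 5.90 FPKM in osteoclasts (0.44; adjusted p = 0.0189). Slc3a2 went from 71.3 to 138 FPKM in macrophages (0.94; limma adjusted p = 4.40e-10) and was not called in osteoclasts (0.07; adjusted p = 0.269). The Slc3a2 rise in macrophages was smaller after rescaling to TPM (0.30) and quantile normalization (0.15). Slc7a6, the other partner of Slc3a2 for arginine, fell from 6.19 to 3.71 FPKM in macrophages (-0.61; limma adjusted p = 4.52e-07). The ornithine carrier of the mitochondrion, Slc25a15, fell from 2.24 to 1.05 FPKM there (-0.66; limma adjusted p = 5.68e-05). Of the 6 tested genes of arginine transport and the urea cycle, 3 were called higher and 2 lower in macrophages, against 36.8% and 33.1% of all tested genes, and after rescaling to TPM 2 higher and 3 lower. In osteoclasts 2 were called higher, against 11.1% of all tested genes.

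Of the 3 tested other genes of tetrahydrobiopterin synthesis and recycling, LPS called none higher and 1 lower in macrophages. Of all tested genes, 36.8% were called higher and 33.1% lower there. None of the 3 was called in osteoclasts, against 17.7% of all tested genes. Gch1 rose in both cell types. After rescaling to TPM all 3 were lower in macrophages, and after quantile normalization 2. Nosip, which binds nitric oxide synthases, fell from 12.1 to 6.50 FPKM in macrophages (-0.80; limma adjusted p = 8.02e-07). Ddah2, which breaks down methylarginine inhibitors of nitric oxide synthase, stood at 7.89 FPKM in untreated macrophages and 0.347 FPKM in untreated osteoclasts (-2.72; limma adjusted p = 2.10e-11). Of the 5 tested other nitric oxide genes, 1 was called higher and 3 lower in macrophages, against 36.8% and 33.1% of all tested genes, and none in osteoclasts, against 17.7% called. After rescaling to TPM 0 were higher and 4 lower in macrophages. The falls in macrophages were larger after rescaling, at -1.48 for Nosip, -1.30 for Slc7a6 and -1.44 for Slc25a15.

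On the list of ornithine use, polyamines and creatine, Gatm makes the creatine precursor from arginine. It stood at 63.5 FPKM in untreated macrophages and 1.57 FPKM in untreated osteoclasts (-4.67; limma adjusted p = 1.47e-11). Paox, a polyamine oxidase, fell in both cell types, from 6.70 to 3.89 FPKM in macrophages and from 1.65 to 1.23 FPKM in osteoclasts (-0.25; limma adjusted p = 0.0124); its exons overlap those of Echs1. Spermine synthase (Sms) stood at 8.03 FPKM in untreated macrophages and 26.8 FPKM in untreated osteoclasts, and the polyamine acetyltransferase Sat1 at 49.3 and 143 FPKM. In osteoclasts, LPS called 1 of the 17 tested genes of this list higher and 1 lower, where 17.7% of all tested genes were called.

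**Figure D4:**
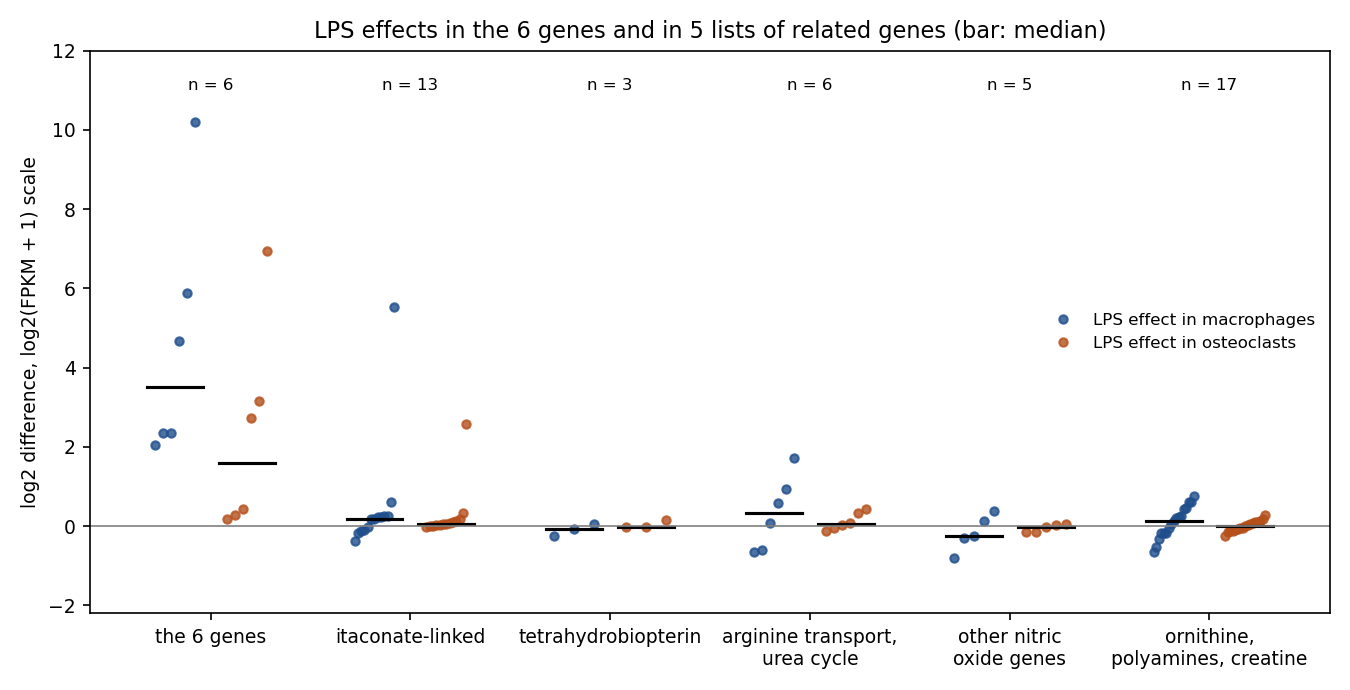
LPS effects (y axis, log2 difference on the log2(FPKM + 1) scale) of each of the 6 genes and of 5 lists of related genes, in macrophages (blue) and osteoclasts (orange); bars are medians and n is the number of genes tested. The medians of the 6 genes are 3.51 and 1.58, and the itaconate list has 1 point far above its median, Irf1 at 5.52 and 2.57.

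The genes with the most similar pattern over the 12 libraries, by Euclidean distance of centred log2(FPKM + 1) values, were taken from the tested genes whose mean reached 1 FPKM. Nearest to Acod1 were Ccl5 (distance 1.10), Cxcl10 (1.73) and Ifit1 (1.93), a pair of chemokines and an interferon-induced gene. Under LPS, Ccl5 was at 1677.1 FPKM in macrophages, with 87.0 FPKM in osteoclasts. Nearest to Nos2 were Clec4e (1.07), Saa3 (1.27) and Cd69 (1.34), and nearest to Slc7a2 were Slc2a6 (1.18), Ptges (1.20) and Gadd45b (1.21). Ass1 was nearest to Ndufb1-ps (0.80), Gch1 to Ccdc25 (0.30) and Odc1 to Tbc1d1 (0.28).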

How the data were processed

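The authors deposited FPKM values for 54532 mouse genes in 12 libraries. Fastp, STAR, featureCounts and DESeq2, with the mm10 build, are named per the submitters' processing notes, without versions or roles; RNA was prepared with a NEBNext Ultra RNA kit per the labels' protocols, and whether strand was used in counting is not given in the sources used here. Every gene above 0 gave whole reads (tolerance 0.02, 100% of 25854 genes; 96.7% at GENCODE M21 exon lengths), and the recovered denominators departed by at most 0.00066% from median-of-ratios size factors.

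The 11335 genes that reached 1 FPKM in 3 or more of the 12 libraries were tested with limma 3.58.1 (R 4.3.3) on log2(FPKM + 1), all 12 libraries in 1 fit with a variance trend and Benjamini-Hochberg adjustment over all genes tested. Differences understate changes of low genes. Other settings tried were no filter, a filter at a mean of 5 FPKM, a pseudocount of 0.1, rescaling to TPM, quantile normalization, limma-voom on recovered reads, only the groups compared, a replicate block, no variance trend and each library left out; voom with no filter was added after seeing the data. Exact 95% intervals cover counting error only. Near-identical copies were searched with blastn 2.17.0 on transcripts. The 6 members reported are all described, genes of the 5 lists may be named, and the 3 most similar genes per member were taken by rule. A few members and listed genes are not reported here and enter no count of members or lists. The members, lists and tests were chosen with earlier results of these data known. Tests were checked on simulated data.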

Additional observations from a re-analysis of the deposited data

Results flagged for a closer look

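The LPS effect differed between osteoclasts and macrophages by limma's interaction test, given as the osteoclast effect minus the macrophage effect on the log2(FPKM + 1) scale. Among the itaconate, nitric oxide and arginine genes it was -3.24 for Acod1, -2.74 for Nos2, -2.08 for Ass1, -1.94 for Gch1, -1.92 for Slc7a2 and -1.86 for Odc1. The smaller rise of Slc7a2 was not called on the ratio scale (-0.63, limma-voom adjusted p = 0.268), nor was that of Nos2 (-5.05, adjusted p = 0.0506), and that of Acod1 was not called by voom with no filter (-2.66, adjusted p = 0.579), where Nos2 was (adjusted p = 0.049). The difference for Slc7a2 was -0.94 under TPM, and that for Odc1 was -1.18 under quantile normalization. Among related genes it was -2.95 for Irf1, -1.27 for Slc7a7 and -0.87 for Slc3a2, which rose more in macrophages; that of Slc3a2 was -0.30 under TPM and -0.16 under quantile normalization, and that of Slc7a7 -0.74 under TPM. It was 0.65 for Nosip, 0.61 for Slc25a15 and 0.50 for Slc7a6, which fell in macrophages and were not called in osteoclasts; under TPM these were 1.25, 1.31 and 1.10. Of all tested genes, 56.6% were called in this test.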

How the results depend on the processing

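No called difference of a member, or of a related gene in the comparisons for which it was followed, reversed its direction. Comparisons of related genes that were not followed are outside these counts, and some of those turned. The LPS difference in macrophages was 0.25 for Cs and -0.39 after rescaling to TPM. That of Sdha was 0.23 and -0.41, and that of Clybl 0.25 and -0.34. Of 654 member values, 634 kept their side of the threshold, 12 lost and 8 gained it; of 1144 values of related genes, 1133 kept it. A mean of at least 5 FPKM left fewer genes to test, with 4851 genes called for LPS in macrophages, 5427 for the cell types without LPS, 5694 with LPS and 4018 for the interaction. After rescaling to TPM, 4 members were called lower in untreated osteoclasts in place of 2, Acod1 (-0.87) and Gch1 (-0.53) being added. That rescaling moved the median over all tested genes there from 0.00 to -0.38. Of the 9217 genes then called, 70.1% were lower, against 50.1% of calls before. Low reads limit Nos2 without LPS.

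Leaving out 1 library gave 7500 to 8012 genes called for LPS in macrophages, 1432 to 2031 in osteoclasts, 8495 to 8874 and 9307 to 9488 for the cell types without and with LPS, and 6049 to 6345 for the interaction. The members called higher with LPS were 6 in macrophages each time and 4 to 6 in osteoclasts, those called lower in the interaction and between treated cell types 6 each time, and those called lower between untreated cell types 2 to 3.

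The labels do not say whether same-numbered libraries of different groups share a mouse or culture. Correlations of same-numbered libraries, on deviations from group means, ran from -0.07 to 0.104 over 18 pairs. Those of libraries with other numbers ran from -0.137 to 0.11. With 3 libraries a group, such correlations cannot settle whether libraries were paired. With the replicate block, 7914 and 1930 genes were called for LPS in macrophages and osteoclasts, against 7921 and 2008 without it, 8787 and 9512 for the cell types and 6422 for the interaction, and Acod1 (-0.33) was called lower in untreated osteoclasts (limma adjusted p = 0.0444).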

Other observations

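Several listed genes of the same metabolism were at or near 0 in these cultures, below the 1 FPKM filter. The mitochondrial urea cycle genes Otc and Cps1 were listed at 0 in all 12 libraries, as were Gucy1a1, a subunit of the nitric oxide receptor, and Oxgr1. The other receptor subunit, Gucy1b1, was at 0 in 10 libraries and at most 0.0769 FPKM. For Gucy1a1, 3 reads would correspond to 0.0183 to 0.0337 FPKM across the libraries. The other nitric oxide synthases, Nos1 and Nos3, were at most 0.175 and 0.131 FPKM. Exons of both overlap those of genes on the opposite strand.

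Nags, which makes the activator of the urea cycle's first enzyme, was listed at 0 in all 6 macrophage libraries and at 0.207 to 0.937 FPKM in the 6 osteoclast libraries. It shares 443 exon bases with Gm11586 on the opposite strand. Sucnr1, the succinate receptor, was at 0.0718 to 0.2 FPKM in the osteoclast libraries and reached at most 0.0821 FPKM in macrophages, so the ranges overlapped. It rested on 10 and 14 reads in osteoclasts without and with LPS, and on 3 and 0 reads in macrophages. Ddah1 went the other way from Nags, at 1.07 to 1.84 FPKM in macrophages and at most 0.0507 FPKM in osteoclasts. These genes were singled out after their values were seen.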
